A study of Mus musculus with 8 samples.

Results

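The genes of the follicular basal lamina, its collagens, laminins and proteoglycans, and of the integrin and dystroglycan receptors that bind it were described in mouse ovarian granulosa cells after deletion of Hif1a. They were 33 genes, named one by one for their roles, of 35087 named genes in the tables. Of these, 23 encode matrix proteins and 10 encode receptor subunits, and all 33 passed the filter on low counts that left 15102 genes tested. Granulosa cells, the somatic cells around the oocyte, were laser-microdissected from frozen ovary sections, and Smart-seq2, a method for very small RNA inputs, made the sequenced libraries from their polyadenylated RNA. The cKO group held 2 libraries from Hif1a flox/flox; Foxl2-CreERT2 female mice, in which a tamoxifen-activated Cre recombinase expressed from the granulosa cell gene Foxl2 can excise Hif1a. The WT group held 6 libraries from Hif1a flox/flox female mice without Cre. Both groups carried the floxed alleles and were dosed with tamoxifen at 100 mg/kg on 5 consecutive days starting at 3 weeks of age, with ovaries collected 7 days after dosing ended. The genotype label calls the cKO libraries a knockdown, while all 8 descriptions carry a library name that starts with cKO. The titles were followed here, and the doubt about the WT label applies to every comparison. Which animal, follicle or follicle stage a library came from is not in the labels, so p-values measure the spread between these libraries, which may be technical, and they are too small if libraries share an animal.

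The basal lamina is a sheet of matrix that separates the granulosa cells of a follicle from the vascularised theca around it. Its scaffold is formed by a network of collagen IV trimers and a network of laminin trimers, each with an alpha, a beta and a gamma chain, which nidogens and heparan sulfate proteoglycans such as perlecan and agrin link to each other. Integrins, dimers of an alpha and a beta subunit, and dystroglycan anchor cells to these networks. In bovine follicles the make-up of the sheet in collagen IV and laminin chains changes as a follicle grows, and collagen IV and laminin also lie in patches between the granulosa cells.

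Most matrix genes had a higher mean in cKO libraries and most receptor genes a lower one, and no member passed the adjusted threshold in edgeR. Of the 23 matrix genes, 18 had a log2 fold change above 0 and 5 below, with a median of 0.34. Of the 10 receptor genes, 2 lay above 0 and 8 below, with a median of -0.88. Over all genes tested, 47.3% lay above 0 and the median was -0.08. The matrix count rested on cKO replicate 1: without it 10 matrix genes lay above 0 and 13 below, with a median of -0.15. In that fit 43.1% of all genes lay above 0, and their median was -0.27. Without cKO replicate 2 the median of all genes was -0.28. The receptor count was 2 above and 8 below without any 1 of the 8 libraries, but not always for the same genes. Without cKO replicate 2, Itga1 changed sign to -0.09 and Itgb5 to 0.15. In a limma fit to log2 of TPM plus 1 the receptor count was 3 above and 7 below. The receptor median lay between -1.57, with cKO replicate 1 left out, and -0.58, with cKO replicate 2 left out.

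The share of all genes called by edgeR's quasi-likelihood test (adjusted p under 0.05) was 0%. DESeq2 called 0.391% of the genes to which it gave an adjusted p as higher in cKO and 3.42% as lower, and its one call among the 18 members that it adjusted was Agrn. An unadjusted p under 0.05 was reached by 3.4% of genes with a higher and 8.89% with a lower cKO mean, a balance that turned in limma-voom with quality weights (1458 genes higher and 1028 lower). Of the members, 2 matrix genes, Agrn and Col4a4, were higher at that level, and 3 receptor genes, Itga2, Itgav and Itgb1, were lower. Both cKO libraries lay above all 6 WT libraries in 6.02% of genes and below them in 6.41%. The members above were Agrn, Lama5 and Itgb4, or 3 of 33, and the members below were Itga2, Itgav and Itgb1, also 3 of 33. These counts are small, and nothing particular to the members is read from them. Scaling by DESeq2's size factors put the median of all genes at 0.05 in place of -0.08 and the matrix genes at 20 above 0 and 3 below, with Col4a5 and Lama4 changing sign, and left the receptor count as it was.

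**Figure D1:**
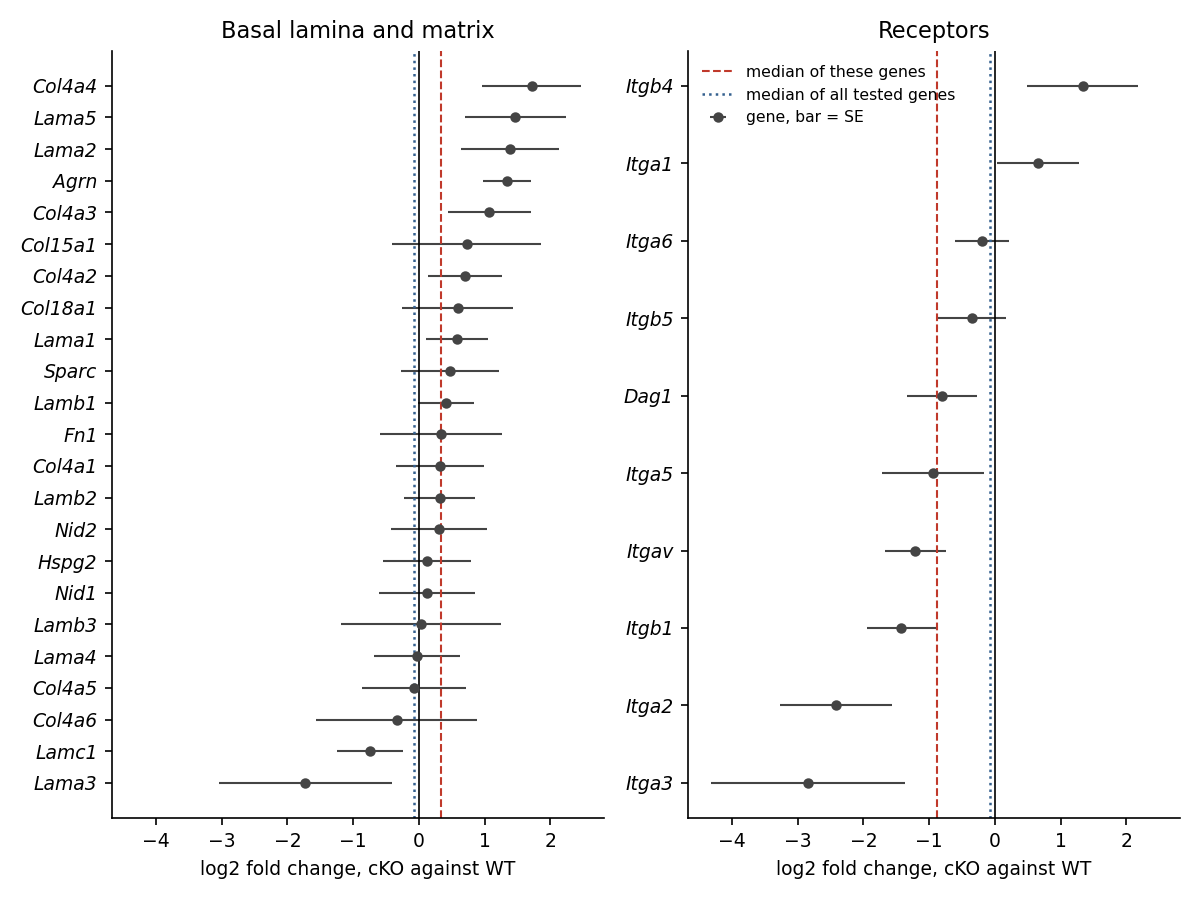
Log2 fold change of cKO against WT (horizontal axis) for the 23 matrix genes (left) and the 10 receptor genes (right), with bars for the standard error from edgeR. The dashed line is the median of the genes in the panel (0.34 for matrix genes, -0.88 for receptor genes) and the dotted line the median of all 15102 tested genes (-0.08).

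The libraries differed in depth, in the Hif1a level and in the genes of other cell types. Reads assigned to named genes numbered 2054584 and 651426 in cKO libraries and from 1594803 to 4719293 in WT libraries. Hif1a had 22.2 and 13.6 CPM in the cKO libraries, after TMM scaling, below the lowest of 35.3, the median of 59.3 and the highest of 106 CPM in WT libraries (log2 fold change -1.84 ± 0.58 SE, edgeR adjusted p = 0.369). The mitochondrial genome took from 8.87% to 10.5% of reads in cKO libraries and from 1.42% to 3.65% in WT libraries. All 12 granulosa markers were detected in both groups, with a summed level of 2468 to 6414 CPM in cKO libraries and 4345 to 66488 CPM in WT libraries. Every gene of the stroma (10), theca (6), smooth muscle and pericyte (8), endothelial (10) and immune (8) lists was also detected in both groups. Detected here means at least 1 read over all libraries of a group, and some genes rest on few, such as C1qb with 1 read in cKO libraries. Ovarian surface epithelium markers summed to 3.53 and 31.2 CPM in cKO libraries, with 4 of 6 genes detected, and to between 0.962 and 15.2 CPM in WT libraries, with all 6 detected. In a bulk sample, fewer cells of a type and less RNA per cell cannot be told apart.

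Levels of different genes were compared as CPM per kilobase of annotated exon length. On that scale Sparc, a collagen-binding matricellular gene, averaged 215 CPM per kilobase in cKO and 155 in WT libraries, the highest of the members. Dag1, which encodes dystroglycan, had 36.8 in cKO and 64.7 in WT, and Lama1, a laminin alpha chain, had 69.2 in cKO and 46.3 in WT. Lamb2, a laminin beta chain, followed with 44.1 in cKO and 35.5 in WT, and then Itgb5, an integrin beta subunit, with 27.5 in cKO and 35.5 in WT. Col4a6 had the lowest mean over all 8 libraries, with 0.36 CPM per kilobase in cKO and 0.458 in WT, while in cKO libraries alone Itga3 (0.221) and Lama3 (0.276) were lower. The deposited TPM gave another order below Sparc, with Itga6 next, and there the authors' effective length of Itga6 was between 289 and 443 bases, while its annotated exons span 9025 bases.

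Collagen IV chains are encoded by genes that lie head to head in pairs. The trimer of Col4a1 and Col4a2 products is found in nearly all basement membranes, while the products of Col4a3, Col4a4 and Col4a5, known from the kidney glomerulus, and of Col4a6 form trimers of more restricted sites. In GRCm38, Col4a1 (chr8:11198423-11312826, minus strand) and Col4a2 (chr8:11312805-11449287, plus strand) overlap by 22 bases at their first exons. Col4a4 (chr1:82448423-82586849, minus strand) and Col4a3 (chr1:82586921-82722059, plus strand) are separated by 71 bases. Col4a6 (chrX:141165403-141474076, minus strand) and Col4a5 (chrX:141475385-141689234, plus strand) are separated by 1308 bases. The interval between Col4a4 and Col4a3 (chr1:82586850-82586920), from the RefSeq promoter table of GRCm38.p6, is shown on the minus strand because the 2 genes start from it in opposite directions, and it holds no ACGTG or GCGTG, the core searched in the promoters, while the 250 bases before the Col4a4 start hold 1 match, 84 bases upstream and outside the interval.
Col4a4-Col4a3 interval: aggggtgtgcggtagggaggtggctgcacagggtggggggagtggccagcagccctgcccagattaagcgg

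Col4a1 had 317 and 76.1 CPM in cKO libraries, against a lowest of 26.9, a median of 159 and a highest of 246 CPM in WT libraries. Col4a2 had 180 and 73.4 CPM in cKO libraries, and 16.3, 87.2 and 117 CPM as the lowest, median and highest in WT libraries. For both genes cKO replicate 1 was the highest of the 8 libraries, WT replicate 6 was the lowest, and the groups overlapped. The log2 fold change was 0.32 ± 0.67 (SE) for Col4a1, and it had the opposite sign, -1.12, without cKO replicate 1. For Col4a2 it was 0.70 ± 0.57 (SE), and -0.15 without cKO replicate 1, with edgeR adjusted p = 0.870 and 0.615 for Col4a1 and Col4a2 over all 8 libraries.

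Col4a4 had 148 and 63.9 CPM in cKO libraries, and in WT libraries 93.5, 45.1, 13.96, 19.2, 20.7 and 4.34 CPM in replicates 1 to 6. Col4a3 had 47.9 and 53.0 CPM in cKO libraries, and 57.9, 28.8, 23.3, 14.4, 12.8 and 7.81 CPM in the same WT libraries. WT replicate 1 stood with the cKO libraries in both genes, and the other 5 WT libraries lay below the cKO libraries. Col4a4 had a log2 fold change of 1.71 ± 0.76 (SE; unadjusted p = 0.040, edgeR adjusted p = 0.389) and Col4a3 of 1.07 ± 0.63 (SE; edgeR adjusted p = 0.487). Col4a4 stood at 0.92 with cKO replicate 1 left out, at 2.37 with WT replicate 1 left out and at 0.65 among the libraries numbered 1 and 2 alone. Without a filter on low counts edgeR called Col4a4 (adjusted p = 0.0369, against up to 1.0 in other alternatives). A noncoding gene on the other strand, C430014B12Rik, shares 563 exonic bases with Col4a3, and unstranded reads cannot be divided between them.

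Col4a5 had 12.1 and 6.79 CPM in cKO libraries and from 4.12 to 18.5 CPM in WT libraries (median 9.85). Col4a6 had 3.03 and 2.72 CPM in cKO libraries and from 1.30 to 7.66 CPM in WT libraries (median 2.81). The Col4a6 value of cKO replicate 2 is 2 reads, below the 3 reads (4.08 CPM there) that a count of 0 allows. Their log2 fold changes were -0.08 ± 0.79 and -0.34 ± 1.23 (SE), so that neither direction was resolved, and Col4a5 changed sign with the scaling.

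Among the 6 collagen IV chains, the share of Col4a4 in the summed level per kilobase was 15.4% and 17.7% in cKO libraries, above the range of 3.47% to 14.6% in WT libraries. Col4a1 took 46.9% and 30.0% in cKO libraries and from 44.9% to 58.6% in WT libraries. Within a library, Col4a4 lay below Col4a1 by 1.61 and 0.76 on the log2 scale of CPM per kilobase in cKO libraries, and by 1.82 to 4.08 in WT libraries. On this scale Col4a1 and Col4a2 were ahead of Col4a4 in all 8 libraries. The distance to Col4a1 was smaller in cKO libraries than in any WT library. In the deposited TPM both the Col4a4 share and this distance overlapped between groups. There Col4a1 and Col4a4 had 51.8 and 6.61 in cKO replicate 2, and 57.0 and 9.21 in WT replicate 1.

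**Figure D2:**
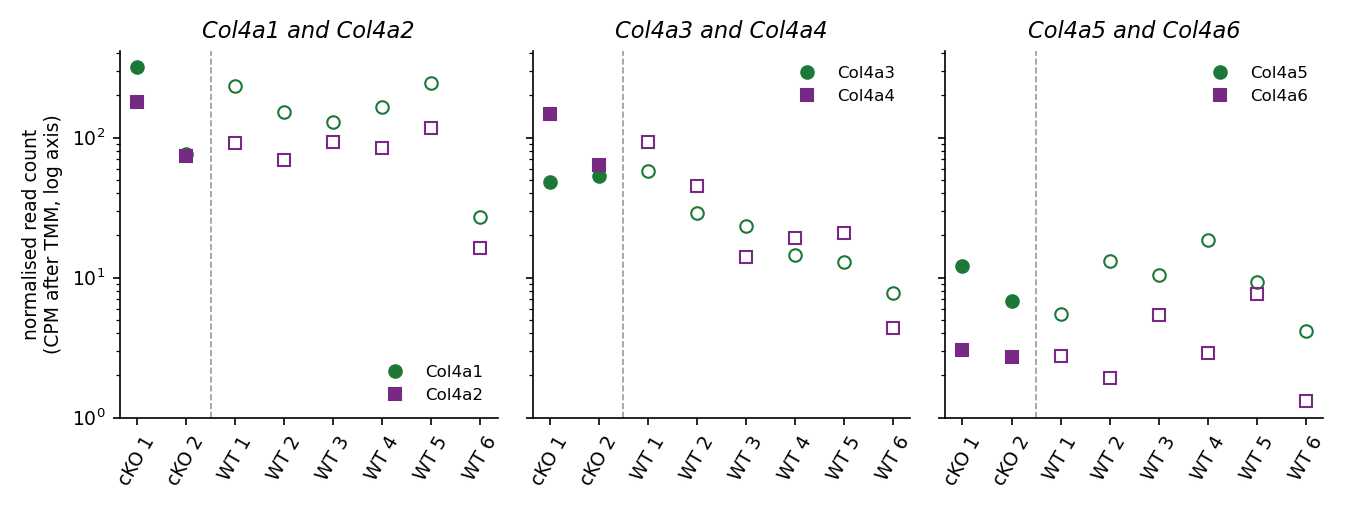
Normalised read count (CPM after TMM, log axis) of the 6 collagen IV genes in each library, in head-to-head pairs, with cKO libraries as filled and WT libraries as open symbols, left and right of the dashed line. Col4a3 and Col4a4 were at 47.9 CPM or more in both cKO libraries and in WT replicate 1, and below that in the other 5 WT libraries.

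Col18a1 and Col15a1 encode the multiplexin collagens, which carry heparan or chondroitin sulfate chains and sit in basement membrane zones. Col18a1 had 16.7 and 34.0 CPM in cKO libraries and from 2.71 to 35.8 CPM in WT libraries. Col15a1 had 13.6 and 10.9 CPM in cKO libraries and from 0 to 16.4 CPM in WT libraries, with no read in WT replicate 6. Their groups overlapped, and log2 fold changes were 0.59 ± 0.84 and 0.72 ± 1.13 (SE; edgeR adjusted p = 0.793 and 0.812). The Col18a1 value was -0.08 without cKO replicate 2.

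Per kilobase of annotated exons, laminin message was dominated by 1 alpha chain and 1 beta chain in every library. In the deposited TPM, Lamb3 lay above Lamb2 in cKO replicate 2 and in WT replicates 1, 3 and 6. The effective length of Lamb3 was only between 14.2 and 41.5 bases over the libraries. Lama1 stayed the highest alpha chain in TPM, narrowly in WT replicate 3 (34.0 against 33.0 for Lama4). Lama1, the alpha chain of the laminin of early epithelia, took 88.9% and 90.4% of the summed level per kilobase of the 5 alpha chains in cKO libraries and from 83.3% to 95.7% in WT libraries. Lamb2 took 79.2% and 78.2% of the 3 beta chains in cKO libraries and from 57.2% to 86.8% in WT libraries, and Lamb1 took most of the rest. Lamc1, the gamma chain shared by most laminins, had fewer reads per kilobase than Lama1 in all 8 libraries.

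Lama1 had 737 and 603 CPM in cKO libraries, against 299, 386 and 701 CPM as the lowest, median and highest in WT libraries (log2 fold change 0.58 ± 0.48 SE, edgeR adjusted p = 0.619). Lamb1 had 138 and 74.7 CPM in cKO libraries, and 44.6, 82.3 and 106 CPM in WT libraries (0.41 ± 0.43 SE). Lamc1 had 33.8 and 23.1 CPM in cKO libraries, and 31.7, 44.7 and 79.6 CPM in WT libraries (-0.75 ± 0.50 SE). Lama1, Lamb1 and Lamc1 thus did not share a sign, and the groups overlapped for all 3 of them. This depends on the chains chosen, since Lamb2, the more abundant beta chain per kilobase, was at 0.31. Lamc3, a gamma chain outside the members, had 106 and 61.1 CPM in cKO libraries and from 6.51 to 104 CPM in WT libraries. Its log2 fold change was 0.82 ± 0.77 (SE), with overlap and the same sign as Lama1. None passed the test, with edgeR adjusted p = 0.700 for Lamb1 and 0.546 for Lamc1.

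Lama5, an alpha chain of many mature basement membranes, was the one laminin gene whose groups did not overlap in CPM. It had 28.8 and 16.3 CPM in cKO libraries, and 13.1, 5.98, 10.1, 1.68, 4.28 and 14.3 CPM in WT replicates 1 to 6. Both cKO libraries were above the highest WT library, cKO replicate 2 narrowly and on 12 reads. In the deposited TPM the groups overlapped, with 12.96 and 2.70 in cKO libraries and up to 5.06 in WT libraries. The log2 fold change was 1.47 ± 0.77 (SE; unadjusted p = 0.076, edgeR adjusted p = 0.445), and 0.93 without cKO replicate 1. Lama5 (chr2:180176373-180225859, minus strand) has no exonic overlap with another annotated gene.

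The other laminin chains overlapped between groups. Lama2, an alpha chain known from muscle and nerve, had 67.6 and 59.8 CPM in cKO libraries and 66.1, 17.7, 10.1, 31.5, 19.4 and 3.04 CPM in WT replicates 1 to 6. As in Col4a3 and Col4a4, WT replicate 1 lay beside the cKO libraries and the other WT libraries lay below, and the log2 fold change was 1.39 ± 0.74 (SE; edgeR adjusted p = 0.454). Lama4, an alpha chain of vessel walls, had 33.3 and 12.2 CPM in cKO libraries and from 10.9 to 40.1 CPM in WT libraries (-0.02 ± 0.66 SE). Lamb2 had 336 and 200 CPM in cKO libraries and from 89.2 to 376 CPM in WT libraries (0.31 ± 0.54 SE). Lama3 and Lamb3, chains of the laminin that anchors skin epithelium, rested on 5 and 15 reads in cKO libraries together. Lama3 had 0.505 and 5.43 CPM in cKO libraries and from 0.651 to 16.3 CPM in WT libraries, and Lamb3 had 3.53 and 10.9 CPM in cKO libraries and from 0.272 to 20.2 CPM in WT libraries.

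Agrn was the member with the smallest p. It encodes agrin, a heparan sulfate proteoglycan that binds laminin and dystroglycan and is best known for gathering acetylcholine receptors at the neuromuscular junction. It had 182 and 118 CPM in cKO libraries, and 65.0, 52.5, 43.1, 62.8, 68.0 and 65.8 CPM in WT replicates 1 to 6. Both cKO libraries lay well above the WT libraries, which stayed within a narrow range and did not set WT replicate 1 apart from the others. The mean level was 150 ± 44.9 CPM over the cKO libraries (SD, n = 2), against 59.5 ± 9.73 CPM over the WT libraries (SD, n = 6). This is a log2 fold change of 1.34 ± 0.36 (SE; 95% interval 0.55 to 2.12). The edgeR test gave an unadjusted p = 0.00259 and an adjusted p = 0.369, and DESeq2 an adjusted p = 0.0264, the lowest of all alternatives, which reached up to an adjusted p = 1.0. Agrn remained at a log2 fold change of 1.42 among the libraries numbered 1 and 2 alone, and at 0.93 without cKO replicate 1. The value counts 360 and 87 reads in cKO libraries and 1289 in WT libraries.

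HIF1 binds DNA at a short core, ACGTG or GCGTG, and the 250 bases before annotated start sites were searched for both on either strand. Agrn (chr4:156165290-156197488, minus strand) has 2 matches in its upstream promoter (chr4:156197489-156197738, minus strand, RefSeq, GRCm38.p6). Its other RefSeq window (chr4:156186210-156186509, minus strand) has 0 matches. The upstream promoter is shown because Agrn was the member that DESeq2 called and this window held the matches, given in capitals (CACGC is GCGTG on the other strand).
Agrn promoter: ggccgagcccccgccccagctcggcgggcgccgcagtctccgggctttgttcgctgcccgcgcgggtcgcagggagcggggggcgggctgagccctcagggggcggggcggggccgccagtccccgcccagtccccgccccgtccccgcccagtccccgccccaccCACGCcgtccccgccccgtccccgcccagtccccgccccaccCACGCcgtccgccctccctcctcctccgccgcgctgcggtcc
The stretch is 83.6% G or C. RefSeq promoters were matched for 24 of the 33 members, in 29 windows, of which 11 (37.9%) held the core, against 38.6% of all 32851 windows. The share among members was thus close to that of all promoters, and the median G and C content was 62.0% for members and 52.4% for all windows. A match describes letters only, and no binding was measured.

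Hspg2, which encodes perlecan, the main heparan sulfate proteoglycan of basement membranes, had 47.9 and 36.7 CPM in cKO libraries and 97.3, 34.3, 29.9, 35.6, 30.4 and 8.03 CPM in WT replicates 1 to 6. WT replicate 1 stood above all others and WT replicate 6 below (log2 fold change 0.13 ± 0.67 SE). Nid1, the nidogen that bridges laminin and collagen IV, had 46.9 and 17.7 CPM in cKO libraries and from 6.51 to 61.8 CPM in WT libraries (0.12 ± 0.73 SE). Nid2, its relative, had 5.55 and 34.0 CPM in cKO libraries and from 8.74 to 26.8 CPM in WT libraries. The cKO libraries were on either side of the whole WT range in Nid2, whose fitted value was 1.08 with cKO replicate 2 alone and -1.54 with cKO replicate 1 alone. The Nid2 exons share 437 bases with Rtraf on the other strand.

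Sparc had 1438 and 190 CPM in cKO libraries, and 124, 664 and 1020 CPM as the lowest, median and highest in WT libraries. The cKO libraries thus stood at or near both ends of the range, and the log2 fold change of 0.47 ± 0.75 (SE) was -1.68 without cKO replicate 1. Fn1, fibronectin, the ligand that several integrins bind through an arginine-glycine-aspartate sequence, had 29.8 and 13.6 CPM in cKO libraries and from 3.10 to 55.0 CPM in WT libraries. Its groups overlapped (log2 fold change 0.34 ± 0.93 SE), and edgeR gave an adjusted p = 0.816 for Sparc and 0.904 for Fn1.

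**Figure D3:**
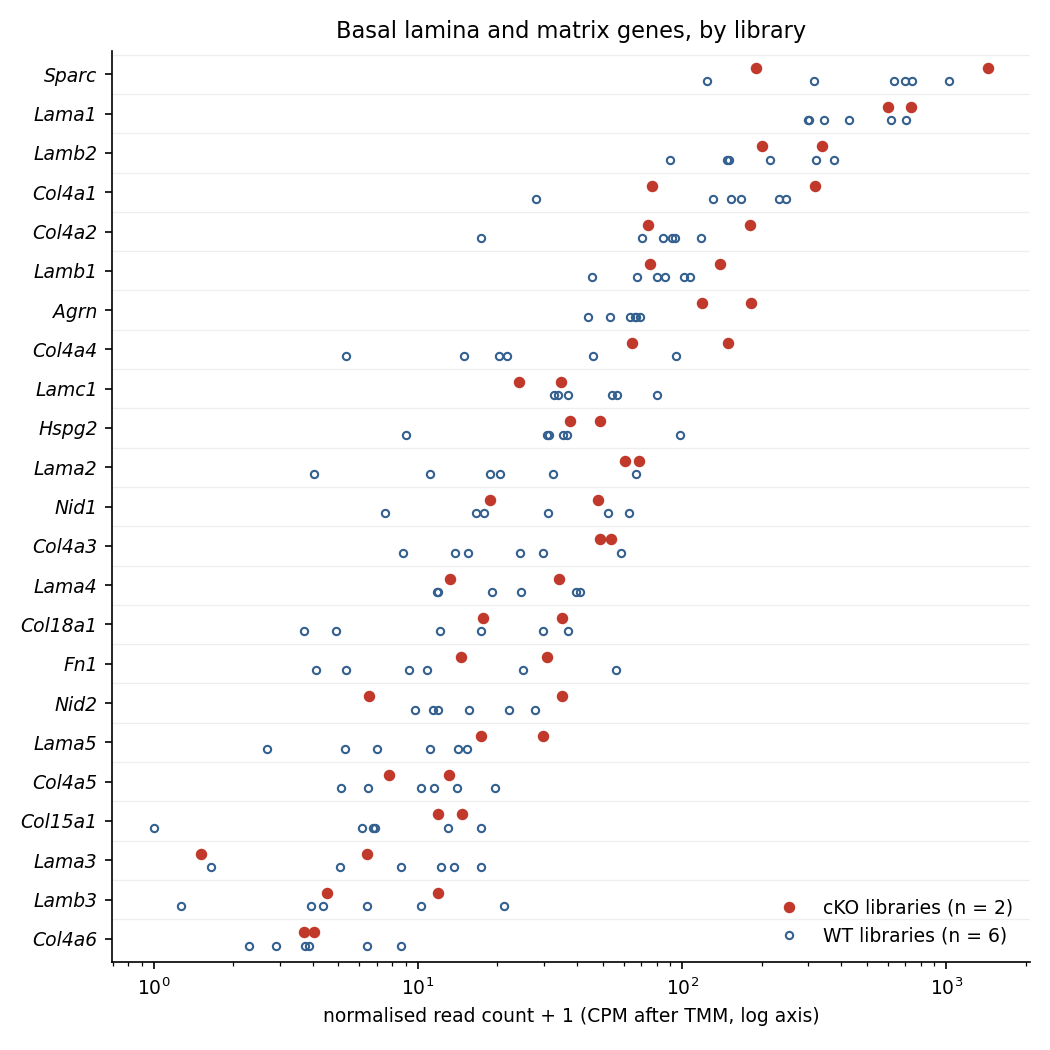
Normalised read count plus 1 (CPM after TMM, log axis) of the 23 matrix genes, 1 point per library, with the 2 cKO libraries as filled points above the 6 WT libraries as open points, and genes ordered by mean. Agrn and Lama5 are the genes in which both cKO points lie right of all WT points.

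Matrix levels differed between libraries of the same group, together with markers of cells outside the granulosa layer. WT replicate 6 had the lowest value of all 8 libraries in 13 of the 23 matrix genes and the highest in 0. It also had the lowest summed level of stroma markers, at 75.5 CPM, where cKO libraries had 1516 and 428 CPM and the remaining WT libraries from 373 to 1132 CPM. The same library had the lowest sum of smooth muscle and pericyte markers, at 28.4 CPM, and of endothelial markers, at 89.4 CPM. In it Col1a1, a fibroblast collagen, was at 1.74 CPM, and both Cyp17a1, the androgen-producing enzyme of theca, and Cdh5, the cadherin of endothelium, had 0 reads. Its oocyte markers summed to 2003 CPM, the highest of the 8 libraries, where cKO libraries had 57.0 and 31.2 CPM.

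At the other end, cKO replicate 1 had the highest value in 9 matrix genes and WT replicate 1 in 6. These libraries had the highest stroma sums, 1516 CPM in cKO replicate 1 and 1132 CPM in WT replicate 1, and the highest smooth muscle and pericyte sums, 709 and 644 CPM. Endothelial markers summed to 377 and 306 CPM in cKO libraries and from 89.4 to 475 CPM in WT libraries, the highest again in WT replicate 1. Immune markers summed to 56.5 and 34.0 CPM in cKO libraries and from 2.89 to 32.2 CPM in WT libraries, and theca markers to 299 and 159 CPM in cKO libraries and from 160 to 754 CPM in WT libraries. The part of these cell types in the matrix levels was not tested. Agrn had 65.8 CPM in WT replicate 6 and 65.0 CPM in WT replicate 1, the WT libraries with the lowest and highest stroma sums. In WT replicates 2 to 5 it had 52.5, 43.1, 62.8 and 68.0 CPM, beside stroma sums of 521, 373, 715 and 934 CPM. Among cKO libraries it was higher in replicate 1, the one with more stroma markers. Without WT replicate 6 the matrix genes stood at 16 above 0 and 7 below.

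**Figure D4:**
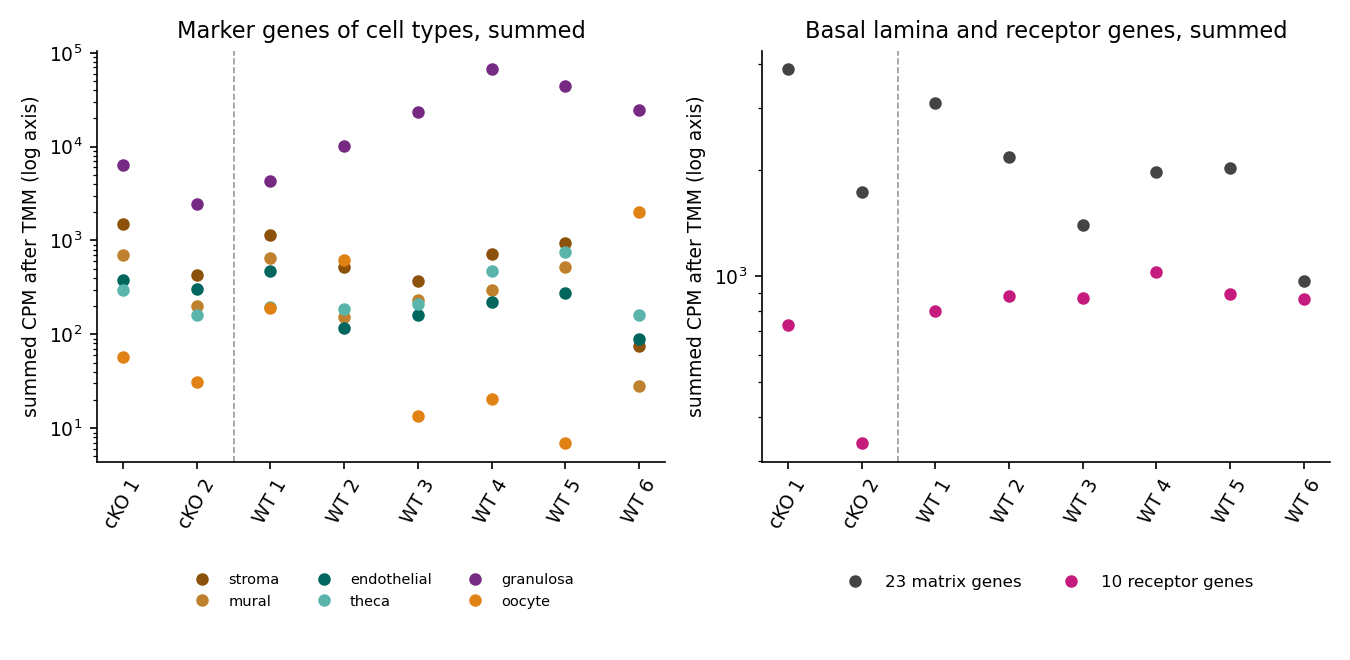
Summed CPM after TMM (log axis) per library, cKO left and WT right of the dashed line, for marker lists of 6 cell types (left panel, where mural stands for smooth muscle and pericytes) and for the 23 matrix and 10 receptor genes (right panel). The matrix sum was lowest in WT replicate 6 at 972 CPM and highest in cKO replicate 1 at 3868 CPM, and the receptor sum was lowest in cKO replicate 2 at 337 CPM.

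The beta subunit Itgb1, the partner of most laminin- and collagen-binding alpha subunits, had a lower mean in cKO. Itgb1 (chr8:128685654-128733200, plus strand) had 62.6 and 19.0 CPM in cKO libraries, and 63.9, 95.2, 107, 136, 137 and 133 CPM in WT replicates 1 to 6. Both cKO libraries lay below the WT libraries, but cKO replicate 1 was close to WT replicate 1. Granulosa markers summed to 6414 and 2468 CPM in cKO replicates 1 and 2 and to 4345 CPM in WT replicate 1. The remaining WT libraries had from 10115 to 66488 CPM. Inha was the largest part of this sum in every library, with 42388 CPM in WT replicate 4. The markers did not all differ alike. Esr2 averaged 298 CPM in cKO and 304 CPM in WT libraries, and Amh 415 and 356 CPM. All remaining markers of the list had a lower mean in cKO, so the sum is not a measure of granulosa cell content alone. The part of granulosa cell content in the receptor levels was not tested. The log2 fold change was -1.42 ± 0.53 (SE; 95% interval -2.55 to -0.30, unadjusted p = 0.0171, edgeR adjusted p = 0.369, DESeq2 adjusted p = 0.094, with 0.094 to 1.0 over all alternatives). Leaving out cKO replicate 2 gave -0.91, leaving out cKO replicate 1 gave -2.62, and the value was -0.87 among the libraries numbered 1 and 2.

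Itgav, the alpha subunit of receptors for fibronectin and vitronectin (chr2:83724397-83806916, plus strand), had 47.4 and 27.2 CPM in cKO libraries, and 62.3, 74.5, 69.4, 99.5, 86.5 and 132 CPM in WT replicates 1 to 6. No cKO library reached the lowest WT library, and the log2 fold change was -1.21 ± 0.46 (SE; 95% interval -2.21 to -0.21, unadjusted p = 0.0209, edgeR adjusted p = 0.374, DESeq2 adjusted p = 0.147, with 0.135 to 1.0 over all alternatives). Itgb5, its beta partner for vitronectin, had 145 and 50.3 CPM in cKO libraries and from 77.1 to 217 CPM in WT libraries. Its groups overlapped, with a log2 fold change of -0.35 ± 0.52 (SE) that was 0.15 without cKO replicate 2. The Itgav exons share 634 bases with the antisense gene Gm13684.

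Itga2, the collagen- and laminin-binding alpha subunit (chr13:114833081-114932100, minus strand), had 2.52 and 6.79 CPM in cKO libraries, and 12.6, 7.07, 30.3, 21.4, 34.9 and 33.0 CPM in WT replicates 1 to 6. The groups did not overlap in CPM, but cKO replicate 2 and WT replicate 2 were close, and each cKO value rested on 5 reads. In the deposited TPM they overlapped, with 5.35 in cKO replicate 2 and 0.68 in WT replicate 2. The log2 fold change was -2.42 ± 0.85 (SE; unadjusted p = 0.0131, edgeR adjusted p = 0.369), and -1.03 among the libraries numbered 1 and 2. Itga3, an alpha subunit of epithelial laminin receptors, had 2.52 CPM (5 reads) and 0 reads in cKO libraries and from 0.217 to 22.3 CPM in WT libraries. WT replicate 6, at 1 read, was as low as the cKO libraries, and the fitted -2.85 ± 1.48 (SE) has no fixed size.

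The remaining alpha subunits overlapped between groups. Itga6, the laminin-binding subunit and the most abundant alpha subunit per kilobase in both cKO libraries, had 65.6 and 53.0 CPM in cKO libraries and from 48.0 to 88.5 CPM in WT libraries. Its log2 fold change of -0.20 ± 0.41 (SE) had a 95% interval of -1.08 to 0.68, so that a difference of up to about that size is not resolved. Itga1, a collagen IV receptor subunit, had 19.2 and 43.5 CPM in cKO libraries and from 6.73 to 38.3 CPM in WT libraries (0.66 ± 0.63 SE, or -0.09 without cKO replicate 2). Itga5, the fibronectin receptor subunit, had 8.08 and 13.6 CPM in cKO libraries and from 9.31 to 49.2 CPM in WT libraries (-0.95 ± 0.78 SE).

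Itgb4, the beta subunit that pairs with the Itga6 product in hemidesmosomes, had a higher mean in cKO. It had 15.6 and 16.3 CPM in cKO libraries, and from 1.09 to 12.02 CPM in WT libraries, with a median of 6.76 CPM. Both cKO libraries lay above the WT libraries, on 31 and 12 reads, with a log2 fold change of 1.33 ± 0.85 (SE; unadjusted p = 0.138, edgeR adjusted p = 0.525). In the deposited TPM the groups overlapped, with 2.05 and 3.32 in cKO libraries and 4.70 in WT replicate 3. Itgb4 (chr11:115974709-116008412, plus strand) shares 537 exonic bases with the antisense gene B230344G16Rik. Among the 3 beta subunits, Itgb1 took 26.2% and 22.1% of the summed level per kilobase in cKO libraries and from 34.4% to 57.1% in WT libraries. Itgb5 took 70.0% and 67.0% in cKO libraries and from 42.2% to 64.8% in WT libraries. Itgb5 thus lay above Itgb1 in both cKO libraries and in 4 of the 6 WT libraries, and below it in WT replicates 4 and 5.

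Dag1, the dystroglycan gene, whose product binds laminins, perlecan and agrin, had 360 and 107 CPM in cKO libraries, and 267, 412 and 559 CPM as the lowest, median and highest in WT libraries. cKO replicate 1 lay inside the WT range and cKO replicate 2 below it. The log2 fold change was -0.81 ± 0.53 (SE, edgeR adjusted p = 0.539), and leaving out cKO replicate 1 put it at -1.997 and leaving out cKO replicate 2 at -0.26. In the shallowest library, cKO replicate 2, 5 of the 10 receptor genes had their lowest value. Receptor genes summed to 729 and 337 CPM in cKO libraries and from 798 to 1026 CPM in WT libraries, a narrower range than that of the matrix genes.

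**Figure D5:**
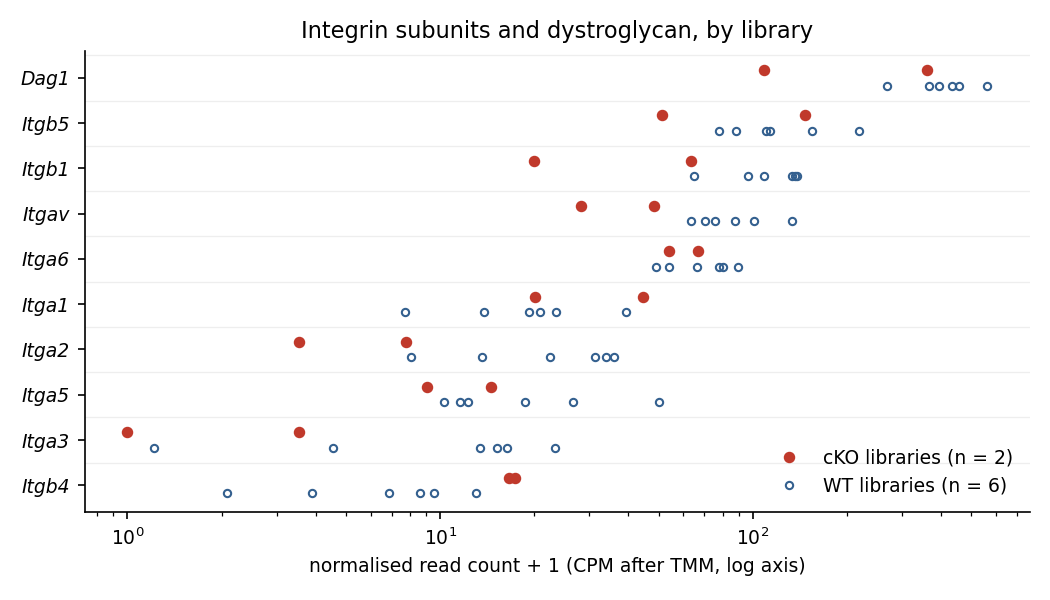
Normalised read count plus 1 (CPM after TMM, log axis) of dystroglycan and 9 integrin subunits, 1 point per library, with the 2 cKO libraries as filled points above the 6 WT libraries as open points. In Itgb1, Itgav and Itga2 both cKO points lie left of all WT points, and in Itgb4 they lie right of them.

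Other genes of basement membranes and adhesion, listed for their roles, had no member past the adjusted threshold in edgeR. Of 15 further basement membrane genes tested, 8 lay above 0 and 7 below, with a median of 0.16. Smoc2, a SPARC-related matrix gene, had 13.1 and 20.4 CPM in cKO libraries and from 44.5 to 156 CPM in WT libraries (log2 fold change -2.51 ± 0.63 SE, edgeR adjusted p = 0.369, DESeq2 adjusted p = 0.0131). Fbln1, fibulin, had 140 and 80.2 CPM in cKO libraries and from 104 to 712 CPM in WT libraries (-1.99 ± 0.70 SE, DESeq2 adjusted p = 0.041). DESeq2 thus called 2 genes lower in cKO, of the 5 in this list to which it gave an adjusted p, where 3.42% of all such genes were called lower. These counts are small, and the groups overlapped in Fbln1. The median of the 23 matrix genes was 0.34, and -0.15 without cKO replicate 1, where that of all genes was -0.27.

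Of 12 other integrin subunits tested, 8 lay above 0 and 4 below, with a median of 1.09. The 2 with the smallest p, Itga4 and Itgb7, encode partner subunits of leukocyte integrins. Itga4 had 25.2 and 91.0 CPM in cKO libraries and from 8.70 to 30.9 CPM in WT libraries (log2 fold change 1.57 ± 0.60 SE). Itgb7 rested on 15 reads in cKO libraries and 6 in WT libraries. The summed immune markers given above were also higher in both cKO libraries than in all WT libraries. The margin was narrow, 34.0 CPM in cKO replicate 2 against 32.2 CPM in WT replicate 1. Not every marker of that list was higher in cKO, and C1qb had 1 read there and 111 in WT libraries. The part of immune cells in these values was not tested. The median of this list was 0.31 without cKO replicate 2.

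The dystrophin-dystroglycan complex and the enzymes that glycosylate dystroglycan had 4 genes above 0 and 7 below, with a median of -0.90. Dmd, dystrophin, had 73.2 and 43.5 CPM in cKO libraries and from 6.73 to 24.5 CPM in WT libraries (log2 fold change 1.61 ± 0.50 SE). Sgcb, a sarcoglycan, had 6 reads in cKO libraries and 500 in WT libraries (-3.51 ± 1.02 SE), and its size is not fixed at so few reads. Both had no overlap between groups and an edgeR adjusted p = 0.369.

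Cytoplasmic and membrane partners of integrins lay 7 above 0 and 10 below, with a median of -0.08, like that of all genes. Src, a tyrosine kinase of adhesion sites, had 11.6 and 4.08 CPM in cKO libraries and from 23.01 to 44.8 CPM in WT libraries (log2 fold change -1.90 ± 0.60 SE, edgeR adjusted p = 0.369). Lims1, which encodes the adaptor PINCH, was at -1.46 ± 0.62 (SE), with overlap. Enzymes and chaperones of collagen production lay 4 above 0 and 9 below, with a median of -0.34. Serpinh1, the collagen chaperone, had 189 and 54.3 CPM in cKO libraries and from 166 to 567 CPM in WT libraries (-1.39 ± 0.61 SE), and the cross-linking oxidase gene Loxl1 was at -1.78 ± 0.74 (SE). Matrix proteases and their inhibitors lay 8 above 0 and 7 below, with a median of 0.10 that was -0.99 without cKO replicate 1. Mmp14, a membrane-bound collagenase, had 24.2 and 36.7 CPM in cKO libraries and from 40.99 to 115 CPM in WT libraries (-1.48 ± 0.53 SE), and Serpine2, a protease inhibitor, was at -1.40 ± 0.65 (SE).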

How the data were processed

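Estimated counts, TPM and effective lengths per gene and library were used as the authors deposited them, 1 table per library. HISAT2, Salmon and mm10 are listed in the submitters' processing notes. Versions and the annotation are not given in the sources used here, and no header adds them. The deposited TPM entered only as a level and, as log2 of TPM plus 1, in an alternative. The tables held 36635 rows. Rows without a gene name (1548, from 0.435% to 0.739% of reads) were left out. Estimated counts were rounded.

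Genes were filtered with edgeR's filterByExpr (minimum count 10, minimum total 15), scaled by TMM and compared with edgeR 4.0.16's quasi-likelihood test (group only, all 8 libraries, R 4.3.3). P-values were adjusted over 15102 genes by Benjamini-Hochberg (threshold 0.05). Log2 fold changes are given as cKO over WT, their standard errors come from the F statistic, and CPM are after TMM. The fit was tested on simulated data. Exon lengths and positions come from GENCODE M21 on GRCm38, the assembly mm10 denotes.

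All 28 pairs of libraries differed beyond sampling noise. A count of 0 allows 3 reads, which is from 0.651 to 4.08 CPM, for counting error only, since reads had no molecular identifiers. The kit does not mark strand.

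The members and lists were chosen with earlier results of these data known. All members are named, with the 2 genes of smallest p in each further list, and Lamc3 as a further laminin chain. Alternatives were DESeq2 1.42.0 and its size factors, no scaling, other filters, limma 3.58.1 (voom, or log2 of TPM plus 1), removal of mitochondrial genome genes, a replicate block, the libraries numbered 1 and 2 alone (a split first chosen after seeing these data), and leaving out each library.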

Additional observations from a re-analysis of the deposited data

Results flagged for a closer look

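Of the 33 genes, Hspg2 (perlecan) had 1 WT library far from the other 5. WT replicate 1 had 97.3 CPM, and the next highest WT library had 35.6 CPM and the lowest 8.03 CPM, so that the gap was 0.691 of the whole WT range, above Dixon's 95% critical value for 6 samples. Chance flags about 1 in 20 groups, and 33 genes were looked at. The log2 fold change of Hspg2 was 0.13 with this library and 0.63 without it.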

How the results depend on the processing

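Leaving each library out, removing the filter on low counts, using another scaling, tool or model, and taking the libraries numbered 1 and 2 alone gave 587 further values for the 33 members. Of these, 532 kept the sign and the side of the threshold, 53 changed sign and 2 passed the threshold (Agrn in DESeq2, Col4a4 without a filter). The sign never changed for 16 of the 33 members. The number of genes called by edgeR, 0 (1855 at an unadjusted p under 0.05), was 478 without a filter, 253 in DESeq2, 6 in limma on log2 of TPM plus 1, and 1 with a replicate block, and from 0 to 1 when leaving out a library. Unadjusted calls were 513 higher and 1342 lower in cKO, but 1458 and 1028 in limma-voom, 1563 and 1923 without a filter, and 143 and 149 in the libraries numbered 1 and 2 alone. They numbered 865 without cKO replicate 2 and 3016 without WT replicate 1. With DESeq2's size factors Col4a5 was at 0.027 and Lama4 at 0.056, without scaling Col4a5 was at 0.011, and in DESeq2 Col4a5 was at 0.031 and Lama4 at 0.054. With 10 reads required in 6 libraries the receptor median was -0.70, the median of the other integrins 0.52, that of further basement membrane genes -0.21 and of the proteases -0.24, Col4a5 was at 0.10 and Lama4 at 0.10. In limma-voom Lama4 was at 0.010, Nid2 at -0.59 and Sparc at -0.24. In limma on log2 of TPM plus 1 the medians were -0.68 (receptors), 0.64 (other integrins) and -0.54 (dystroglycan complex), Col4a5 was at 0.059, Lama4 at 0.37, Nid1 at -0.71 and Itga5 at 0.60.

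Whether the replicate numbers pair the libraries is not known. The deviations of same-numbered libraries from their group means correlated at -0.30 and -0.17. With 2 cKO libraries these deviations mirror each other, so the 2 values are not separate checks and cannot decide this. With the replicate block the medians were 0.27 (other integrins), -0.29 (dystroglycan complex), -0.30 (integrin partners) and -0.030 (collagen production), and unadjusted calls numbered 179. In the same blocked fit Col4a1 was at -0.27, Col4a5 at 0.13, Col4a6 at 0.32, Lama4 at 0.55, Lamb2 at -0.42, Nid1 at -0.18, Hspg2 at -0.48 and Sparc at -0.61. Among the libraries numbered 1 and 2 alone the medians were -0.091 (other integrins), -0.19 (dystroglycan complex) and 0.16 (collagen production), with Col4a5 at 0.14, Lama4 at 0.72, Lamb2 at -0.32, Lamb3 at -0.50, Nid1 at -0.24, Hspg2 at -0.59 and Sparc at -0.020.

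Leaving out each library gave medians from -0.15 to 0.66 (matrix), -1.57 to -0.58 (receptors), 0.31 to 1.23 (other integrins), -0.66 to 0.072 (integrin partners), -0.89 to -0.20 (collagen production), -0.99 to 0.39 (proteases), -1.06 to -0.64 (dystroglycan complex) and -0.31 to 0.54 (further basement membrane genes). Members whose sign changed there ranged from -1.12 to 0.92 (Col4a1), -0.15 to 1.13 (Col4a2), -0.64 to 0.20 (Col4a5), -0.084 to 1.02 (Col18a1), -1.01 to 0.42 (Lama4), -0.16 to 0.73 (Lamb1), -0.17 to 0.58 (Lamb2), -1.01 to 0.74 (Lamb3), -0.83 to 0.55 (Nid1), -1.54 to 1.08 (Nid2), -0.14 to 0.63 (Hspg2), -0.42 to 1.19 (Fn1), -1.68 to 1.21 (Sparc), -0.093 to 1.09 (Itga1) and -1.39 to 0.15 (Itgb5). Where a cKO library is left out, the remaining one is assumed to vary like the WT libraries. The causes of these changes were not tested. Depth limits cKO replicate 2 most, where 3 reads equal 4.08 CPM. Lama3, Itga2 and Itga3 rest on 10 reads or fewer in cKO libraries together, as does Col4a6.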
